A study of Mus musculus with 9 samples.

Results

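The 44 genes described here encode proteins that repair DNA or signal its damage, and were chosen by symbol from the 50600 genes of the deposited tables. The choice was made with earlier results of these data known. They comprise 15 genes of homologous recombination, 4 of Fanconi anaemia crosslink repair, 4 of non-homologous end joining, 3 of mismatch repair, 10 of base excision and strand break repair, 4 of nucleotide excision repair and 4 checkpoint kinases. The cells were RAW-Blue, mouse macrophages of an established line that holds an inflammatory signalling reporter, and their RNA was sequenced in bulk. The LPS group received lipopolysaccharide, a bacterial cell wall component sensed by the receptor Tlr4, at 1 µg/ml for 24 hours, and the None group received no stimulus. Each had 3 libraries. A further group, LPS-PjELNs, which received Peucedanum japonicum nanovesicles ahead of LPS, was not analysed here. Both groups were kept, per the labels' growth protocol, with Normocin, penicillin-streptomycin and Zeocin, a selection antibiotic of the bleomycin family that cuts DNA and to which the line carries a resistance gene. Nothing in the labels says that replicates were separate cultures, so the p-values rest on a spread between libraries that may be technical.

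Each kind of DNA lesion has its own repair route. Homologous recombination copies an intact sister chromatid and works mainly in S and G2 phase, whereas end joining ligates broken ends at any stage of the cell cycle. Base excision, nucleotide excision and mismatch repair remove small base lesions, bulky adducts and copying errors, and the kinases Atm and Atr pass the damage signal to Chek2 and Chek1. Many recombination and crosslink repair genes are transcribed together with the genes of DNA replication, under the control of E2F factors, so their transcripts are more abundant in dividing cells.

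Transcripts of most of these genes were lower in LPS-stimulated cells. Of the 44 genes, all of which passed the filter on low counts, 32 fell, 6 rose and 6 were not called, where 69.1% of all genes tested were called in either direction (edgeR's quasi-likelihood test, Benjamini-Hochberg adjusted p under 0.05 over all 11916 genes tested). The lower calls made up 72.7% of the members, and lower calls over all genes tested made up 35.1%. Higher calls made up 13.6% of the members, where the same share over all genes tested was 34.0%. Because the members were chosen with earlier results known, these shares are no test of repair genes as a class. Of 102 further repair genes tested, described below, 42.2% fell and 24.5% rose. The median log2 fold change of LPS over None was -0.60 over the members and -0.03 over all genes tested. The LPS libraries lay wholly below the None libraries for 32 members (38.0% of all genes tested) and wholly above for 6 (35.7%). Decreases of at least 2-fold were found for 10 members, or 22.7%, against 11.8% of all genes tested, and an increase of that size for 1, the excision nuclease gene Ercc1, against 11.1%. These values use TMM scaling. Scaling to the total count of each library in place of TMM moved log2 fold changes by a median of -0.26 over all genes, and 35 members then fell and 1 rose, where 51.0% of all genes tested were called lower and 22.5% higher. Of all genes called, 49.2% were higher with TMM scaling, 30.6% with library totals and 35.2% on TPM values.

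**Figure D1:**
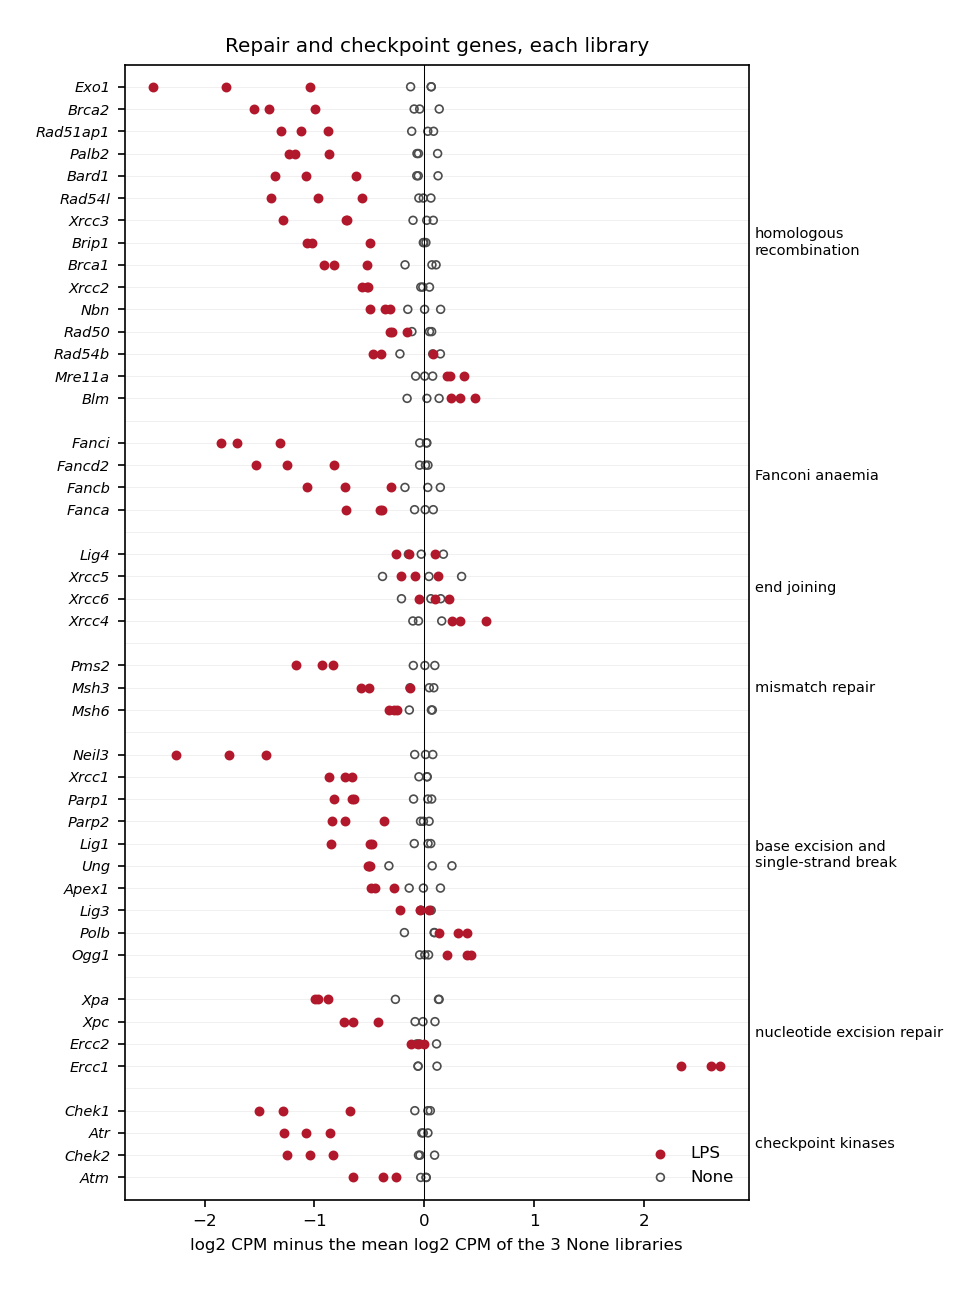
Level of each of the 44 genes in each library, as log2 CPM (counts scaled to library size, TMM-scaled) minus the mean log2 CPM of the 3 None libraries, grouped by pathway. Filled points are LPS libraries and open points None libraries. The LPS points lie left of the None points for 32 genes, overlap them for 6 and lie right of them for 6, with Ercc1 farthest right.

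The libraries held 14650843 to 15659413 estimated counts in LPS and 17028457 to 17665200 in None. The macrophage markers Lyz2, Cd68, Csf1r and Adgre1 were found at mean levels of 16560, 757, 177 and 85.2 TPM (transcript abundance per length, as the authors deposited it) in LPS and 9714, 831, 527 and 94.5 TPM in None. Of the 8 macrophage markers listed, 7 were tested, and Mertk was not. Itgam (1.08), Fcgr1 (1.02) and Lyz2 (0.99) were called higher, Csf1r (-1.33) and Ptprc (-0.46) lower, and Cd68 and Adgre1 were not called. Of the fixed markers, the epithelial Epcam and Krt8, the T cell genes Cd3e, Cd3g and Cd8a, the B cell gene Ms4a1, and the neutrophil genes Ly6g and Mpo had 0 counts in all 6 libraries. Summed marker levels were at most 1.72 TPM per library for fibroblast, epithelial, endothelial, T cell, B cell and erythroid lists, while the neutrophil list held 66.2 to 84.9 TPM in LPS and 0.570 to 1.20 TPM in None, with S100a8 as its one tested gene. The B cell marker Cd79a was also called higher (2.47), and the fibroblast markers had 64 counts over the LPS libraries, against 1 over the None libraries. The part of these markers in the results was not tested. In bulk RNA, fewer cells expressing a gene and less RNA per cell cannot be told apart.

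Genes of cell division moved in the same direction. All 20 mitosis genes fell, where 35.1% of all genes tested were called lower. Their median log2 fold change was -1.52, and among them were Ccnb2 (-2.53), Cenpf (-2.43), Cdc20 (-2.14) and Nusap1 (-2.01). The proliferation marker Mki67 averaged 18.4 ± 6.43 TPM in LPS and 79.8 ± 4.58 TPM in None (SD, n = 3 each). Of 25 DNA replication genes, 19 (76.0%) fell and none rose, against 35.1% and 34.0% of all genes tested. Their highest value was 0.05 and their median was -0.67, which is close to that of the repair members. With library totals, 24 of them fell and none rose, where 51.0% of all genes tested were called lower and 22.5% higher. Summed over the 44 members, levels were 512, 581 and 522 TPM in LPS replicates 1 to 3, against 710, 778 and 755 TPM in None. The mitosis genes summed to 398, 613 and 458 TPM in the same LPS libraries and to 1310, 1416 and 1388 TPM in None. LPS replicate 2 thus held the most of both lists within its group. It was the highest LPS library, by CPM, for 31 of the 44 members, 23 of 25 replication genes and all 20 mitosis genes, where it was the highest for 32.4% of all genes tested. The part of cell division in the lower repair transcripts was not tested.

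**Figure D2:**
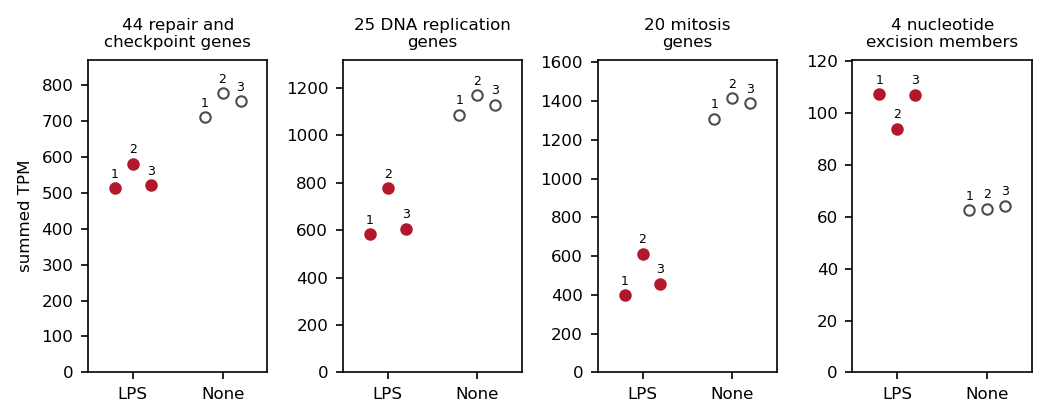
Summed TPM in each library for the 44 repair and checkpoint genes, 25 DNA replication genes, 20 mitosis genes and the 4 nucleotide excision members, with LPS libraries as filled points, None libraries as open points and replicate numbers above them. Every LPS library lies below every None library in the panels for all members, replication and mitosis, with LPS replicate 2 the highest of its group, and above every None library in the nucleotide excision panel.

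Promoters were searched for the letters of 2 cell cycle sites. An E2F site was counted where the letters TTCCCGC were found, or the letters TTGGCGC were found, or else TTCGCGC was found, or lastly TTGCCGC was found. The cell cycle homology region (CHR), a site common in mitosis genes, was searched as TTTGAA. Both strands were read in the RefSeq promoters (GRCm38.p6, from 250 bases before to 50 after each start), and an overlap of matches was allowed. Of the 36 members with a promoter in the table, 21 (58.3%) held the E2F letters, against 20.1% of genes tested with a promoter and 10.9% of all genes in the table. With shorter letters of 6 bases the share of members was the same, but it was 45.4% among genes tested and 27.4% among all genes. CHR letters were found in 1 member, Bard1 (2.78%), against 14.5% of genes tested. DNA replication genes held E2F letters in 13 of 19 and CHR letters in 2, while mitosis genes held E2F letters in 3 of 16 and CHR letters in 11. Members that fell and members that did not held the E2F letters at similar shares, 15 of 26 and 6 of 10. A match is a description of the letters in this window. Rad54b, Xrcc2, Exo1, Rad50, Nbn, Fancd2, Polb and Xpc were not matched.

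Stretches around the letters are shown for 5 members that fell and 3 that rose, because both kinds carry them. Capitals mark the searched E2F letters, read 5′ to 3′ on the gene's strand, where the reverse complement appears if the match is on the other strand. They lie at chr5:150522428-150522484 (plus strand) for Brca2, chr5:110839806-110839862 (plus) for Chek2, chr1:71103149-71103205 (minus) for Bard1, chrX:164980395-164980451 (plus) for Fancb and chr13:92355186-92355213 (minus) for Msh3. Those of the genes that rose lie at chr7:80535125-80535149 (minus) for Blm, chr13:90089693-90089717 (minus) for Xrcc4 and chr7:19345023-19345047 (plus) for Ercc1.
Brca2: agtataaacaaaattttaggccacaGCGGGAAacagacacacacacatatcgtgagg
Chek2: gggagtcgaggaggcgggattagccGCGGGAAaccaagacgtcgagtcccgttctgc
Bard1: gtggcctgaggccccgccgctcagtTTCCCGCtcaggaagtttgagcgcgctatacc
Fancb: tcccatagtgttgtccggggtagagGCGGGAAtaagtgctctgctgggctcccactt
Msh3: ccgtcaagtTTGGCGCGAAatcgcagcc
Blm: tcatccttcTTGCCGCgcagagcgt
Xrcc4: ccgctgtgcTTCCCGCtcgctccag
Ercc1: tagagagcaGCGCGAAtagagttcc
In Msh3 a pair of overlapping matches, one on each strand, shares letters.

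**Figure D3:**
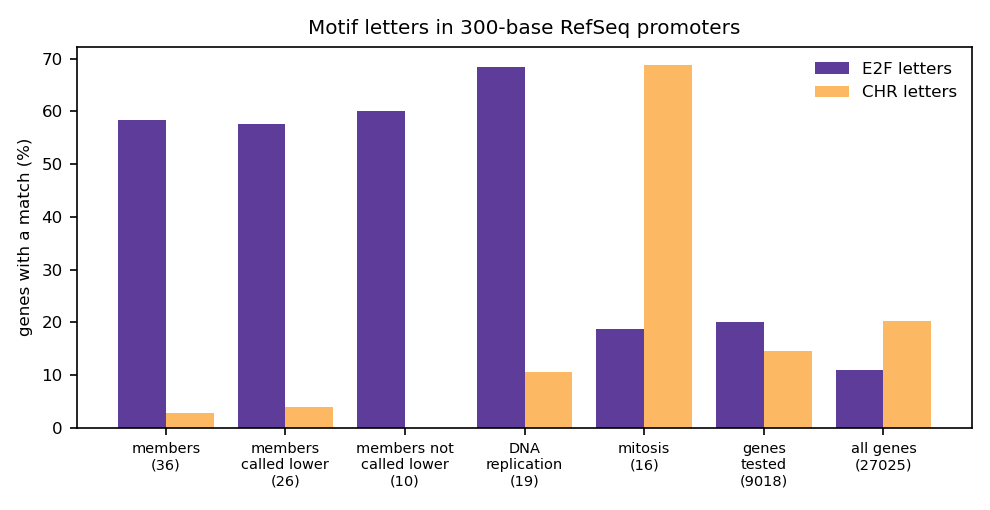
Share of genes whose RefSeq promoter (300 bases) holds the searched E2F letters (purple) or CHR letters (orange), for the members, the members called lower or not, replication and mitosis genes, genes tested and all genes, with the number of genes in brackets. E2F letters were found in 58.3% of members and 20.1% of genes tested, and no member outside those called lower held CHR letters.

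Homologous recombination was the largest pathway, with 12 of 15 genes lower, 2 higher and a median log2 fold change of -0.84. The sharpest fall was that of Exo1 (chr1:175880581-175913489), the exonuclease that resects DNA ends. Exo1 had 2.27, 6.10 and 3.61 CPM in LPS, against 13.1, 11.5 and 13.1 CPM in None. The LPS libraries differed among themselves more than the None libraries, yet none reached the None range. The log2 fold change of Exo1 was -1.66 ± 0.24 (SE), a 3.16-fold decrease with an edgeR adjusted p of 4.91e-05, and it was -2.09 without LPS replicate 2.

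Brca2 loads the recombinase onto resected single strands, Palb2 bridges it to Brca1, and Bard1 is the partner with which Brca1 forms its ubiquitin ligase. Brca2 (chr5:150522630-150570329) had 7.74, 10.4 and 7.07 CPM in LPS, against 19.4, 22.7 and 20.1 CPM in None. Its log2 fold change was -1.30 ± 0.14, with an edgeR adjusted p of 3.75e-06. Brca1 (chr11:101488764-101551955) had 16.9, 22.2 and 18.0 CPM in LPS, against 28.3, 33.5 and 34.4 CPM in None. The Brca1 and Brca2 groups did not overlap, and LPS replicate 2 was the highest LPS library for both. Brca1 fell by a log2 fold change of -0.75 ± 0.12 (edgeR adjusted p = 0.000105). Palb2 fell to 6.70 ± 0.938 CPM in LPS, against 14.2 ± 1.05 CPM in None, a log2 fold change of -1.09. Bard1 fell to 6.15 ± 1.61 CPM in LPS, against 12.2 ± 0.932 CPM in None, a log2 fold change of -0.99. Transcripts of these 4 genes thus all fell, by between 1.68-fold for Brca1 and 2.47-fold for Brca2. Brip1, the helicase that binds Brca1, had 9.31, 13.4 and 9.02 CPM in LPS, against 18.9, 19.1 and 18.8 CPM in None, and fell 1.79-fold.

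Transcripts of accessory factors of strand exchange fell as well. Rad51ap1, which stimulates joint formation, had 6.04, 8.13 and 6.85 CPM in LPS, against 13.8, 15.8 and 15.2 CPM in None, and a log2 fold change of -1.09. Rad54l, a motor protein that remodels chromatin during strand invasion, had 16.1, 28.6 and 21.7 CPM in LPS, against 40.9, 42.1 and 44.1 CPM in None, and a log2 fold change of -0.94 ± 0.15. In both genes every LPS library lay below every None library. Rad54l shares 15.4% of its exonic bases with Lrrc41 on the opposite strand, which rose (0.40), and since strandedness is not given, reads from the shared stretch cannot be told apart. Its relative Rad54b had 6.46, 9.44 and 6.78 CPM in LPS, against 7.65, 9.41 and 9.88 CPM in None. The groups overlapped, and Rad54b was not called, at -0.25 ± 0.17 with an edgeR adjusted p of 0.200, although it was called lower without LPS replicate 2 (-0.43, edgeR adjusted p = 0.0324), on TPM values (-0.63) and under scaling to totals (-0.51). Rad54b shares 35.8% of its exonic bases with Fsbp on the same strand, so its reads are uncertain. Fsbp was called lower (-1.87), at 0.240 CPM in LPS and 0.896 CPM in None. Whether Rad54l and Rad54b differ in their response was not tested. The recombinase paralogues Xrcc3 and Xrcc2 fell with log2 fold changes of -0.88 ± 0.19 and -0.53 ± 0.13, and both were sparse, at 2.02 and 2.14 TPM in LPS and 4.18 and 3.42 TPM in None.

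The complex that first holds a broken end joins the nuclease Mre11a, the ATPase Rad50 and the adaptor Nbn. Mre11a had 52.1, 53.1 and 58.0 CPM in LPS, against 42.9, 45.4 and 47.7 CPM in None, and was called higher at 0.26 ± 0.08, but the call was lost on TPM values (0.06) and under scaling to library totals (0.00). Rad50 had 40.4, 45.1 and 41.2 CPM in LPS, against 46.6, 52.7 and 52.0 CPM in None, and Nbn had 13.6, 12.1 and 13.3 CPM in LPS, against 15.3, 17.0 and 18.8 CPM in None. Nbn fell by -0.39 ± 0.11 and Rad50 by -0.26 ± 0.08, the smallest decrease called among the members. The call of Rad50 was lost without None replicate 2 (-0.23, edgeR adjusted p = 0.0764) or None replicate 3 (-0.23, edgeR adjusted p = 0.0569). Blm, the helicase that dissolves crossed strands, had 44.3, 51.7 and 47.0 CPM in LPS, against 33.6, 38.0 and 41.1 CPM in None. It was called higher at 0.34 ± 0.09, but not with scaling by library totals (0.08) or on TPM values (0.21).

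All 4 Fanconi anaemia genes fell, where 35.1% of all genes tested were called lower. Fanci and Fancd2 form the clamp that is ubiquitinated at a crosslink, while Fanca and Fancb belong to the core complex that directs this modification. Fanci (chr7:79391929-79450264) had 7.39, 9.73 and 6.71 CPM in LPS, against 23.4, 24.4 and 24.5 CPM in None. Fancd2 (chr6:113531682-113597017) had 11.3, 18.5 and 13.7 CPM in LPS, against 31.7, 33.4 and 32.9 CPM in None. Both None groups were tight and lay well above the LPS libraries. Fanci fell 3.04-fold (log2 -1.60 ± 0.13, edgeR adjusted p = 2.65e-07) and Fancd2 2.25-fold (log2 -1.17 ± 0.14, edgeR adjusted p = 1.05e-05). Of the core complex, Fanca averaged 14.1 ± 1.74 CPM in LPS and 19.8 ± 1.16 CPM in None, and fell by -0.49 ± 0.11 on the log2 scale, and Fancb fell by -0.67 ± 0.21. Fancb had 2.84, 3.78 and 2.24 CPM in LPS, against 4.78, 4.14 and 5.17 CPM in None, and its call was lost without LPS replicate 3 (-0.50, edgeR adjusted p = 0.0509) or None replicate 3 (-0.59, edgeR adjusted p = 0.0512). Fanci shares 16.0% of its exonic bases with Polg on the opposite strand, and the log2 fold change of Polg was -0.61. Fanca shares 10.5% with Zfp276 on the opposite strand, which fell (-0.30).

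None of the 4 end joining genes was called lower by edgeR with TMM scaling, whether by adjusted or by unadjusted p. By adjusted p none was called lower with library totals, and 1 was called lower on TPM values. Xrcc5 and Xrcc6 encode the Ku proteins that cap broken ends, and Xrcc4 is the scaffold of the ligase Lig4. Xrcc6 had 35.3, 39.1 and 42.6 CPM in LPS, against 31.5, 40.4 and 38.0 CPM in None. Xrcc5 had 4.55, 3.92 and 3.61 CPM in LPS, against 3.20, 4.29 and 5.27 CPM in None. Lig4 had 6.18, 7.91 and 6.71 CPM in LPS, against 6.67, 7.24 and 8.32 CPM in None. In these 3 genes the groups overlapped, and log2 fold changes were 0.09 ± 0.11 for Xrcc6, -0.08 ± 0.21 for Xrcc5 and -0.10 ± 0.15 for Lig4, with edgeR adjusted p-values of 0.470, 0.737 and 0.577. Lig4 was, however, called lower on TPM values (-0.30, limma adjusted p = 0.0342). Under scaling to library totals, Lig4 stood at -0.35 (edgeR adjusted p = 0.0587) and Xrcc5 at -0.34 (edgeR adjusted p = 0.157). The Ku subunits differed in level, with Xrcc6 at 22.6 ± 1.67 TPM in LPS and 26.0 ± 3.42 TPM in None, and Xrcc5 at 1.84 ± 0.245 TPM in LPS and 2.27 ± 0.522 TPM in None. Xrcc4 had 24.5, 20.8 and 19.8 CPM in LPS, against 15.5, 16.0 and 18.6 CPM in None. It was called higher at 0.38 ± 0.11 (edgeR adjusted p = 0.00854), but not on TPM values, where its value was -0.18, nor under scaling to library totals (0.12).

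**Figure D4:**
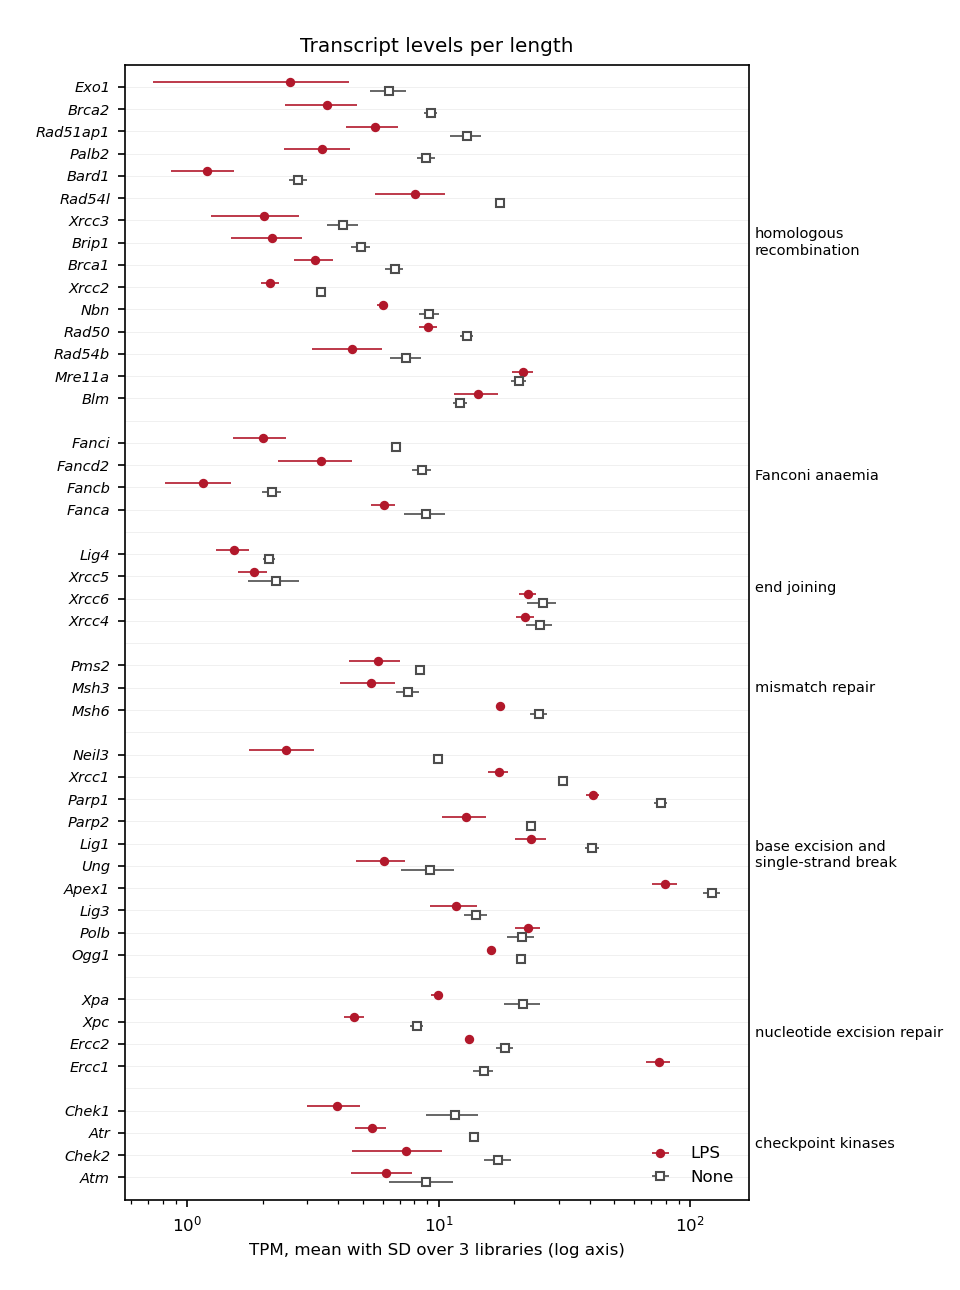
Mean TPM with SD over 3 libraries on a log axis for each of the 44 genes, with LPS (filled circles) above None (open squares) in each row. Apex1 and Parp1 were highest in None, and Ercc1 stands at 75.1 TPM in LPS, against 15.1 TPM in None. Bars are symmetric SDs on a linear scale.

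All 3 mismatch repair genes fell, where 35.1% of all genes tested were called lower. Msh6 and Msh3 recognise mispaired bases and small loops, and Pms2 supplies the nuclease activity that follows. Pms2 had 9.02, 11.4 and 10.6 CPM in LPS, against 20.3, 21.6 and 18.9 CPM in None, and fell 1.96-fold. Msh6 had 65.2, 67.2 and 68.8 CPM in LPS, against 74.2, 85.8 and 85.2 CPM in None, and fell 1.22-fold. The groups of both genes did not overlap, and Msh6 had the smaller change. Msh3 had 9.73, 12.6 and 9.23 CPM in LPS, against 12.6, 14.6 and 14.2 CPM in None. Its call at -0.40 ± 0.13 was lost without LPS replicate 1 (-0.34), LPS replicate 3 (-0.30), None replicate 2 (-0.35) or None replicate 3 (-0.38).

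Base excision and strand break repair held both the most abundant members and the member with the largest decrease. Neil3 (chr8:53586867-53639065), a glycosylase that removes oxidised bases from single-stranded DNA and opens crosslinks at replication forks, had 3.41, 6.03 and 4.76 CPM in LPS, against 16.5, 15.4 and 17.3 CPM in None. It fell 3.46-fold (log2 -1.79 ± 0.17, edgeR adjusted p = 1.02e-06). The other glycosylases had smaller changes. Ung, which removes uracil, had 8.03, 8.13 and 8.08 CPM in LPS, against 9.17, 13.7 and 12.1 CPM in None. The None libraries spread more than the LPS libraries, and the fall of Ung by -0.53 ± 0.15 was not called without None replicate 2 (-0.40, edgeR adjusted p = 0.0517). Ogg1, which removes oxidised guanine, had 15.8, 17.9 and 18.4 CPM in LPS, against 13.7, 13.3 and 14.1 CPM in None, and was called higher at 0.34 ± 0.10. On the deposited TPM scale Ogg1 was lower, at 16.2 ± 0.595 in LPS and 21.2 ± 0.535 in None, and limma on log2(TPM + 1) called it lower at -0.38 (adjusted p = 0.00313), so its direction depends on the scale. Ogg1 shares 10.6% of its exonic bases with Camk1 on the opposite strand, which fell (-1.05).

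Apex1, the endonuclease that cuts at abasic sites, was the most abundant member, at 79.7 ± 9.37 TPM in LPS and 122 ± 9.88 TPM in None, and its log2 fold change was -0.41. Of its exonic bases, 61.7% are shared with Pip4p1 on the opposite strand, which fell by -0.32, so the reads of this gene are uncertain. The polymerase Polb, which fills the gap, had 21.7, 23.0 and 19.3 CPM in LPS, against 15.5, 18.7 and 18.7 CPM in None. Polb was called higher at 0.27 ± 0.11 (edgeR adjusted p = 0.0390), and the call was lost without any one of LPS replicate 1 (0.26), LPS replicate 2 (0.22), None replicate 1 (0.19), None replicate 2 (0.32) and None replicate 3 (0.32), on TPM values (0.08) and under scaling to library totals (0.02). Lig1, the ligase of replication and long-patch repair, had 42.4, 54.5 and 55.0 CPM in LPS, against 71.9, 79.8 and 78.4 CPM in None, and fell 1.51-fold. Lig3, the partner of Xrcc1, had 51.1, 54.1 and 45.0 CPM in LPS, against 51.4, 54.8 and 51.2 CPM in None. The Lig1 groups did not overlap, whereas those of Lig3 did, and Lig3 was not called at -0.07 ± 0.08 (edgeR adjusted p = 0.487). Lig3 shares 25.1% of its exonic bases with Rffl on the opposite strand. Rffl rose, with a log2 fold change of 2.13, to 73.0 CPM in LPS, against 16.7 CPM in None.

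Transcripts of the sensors and scaffold of broken strands fell together. Parp1, which marks breaks with poly(ADP-ribose), had 123, 140 and 137 CPM in LPS, against 203, 222 and 227 CPM in None. Xrcc1, the scaffold that gathers the enzymes at the break, had 24.4, 27.0 and 28.2 CPM in LPS, against 43.0, 45.3 and 45.2 CPM in None. Neither gene had overlapping groups, and the decreases were 1.63-fold for Parp1 (edgeR adjusted p = 5.24e-06) and 1.68-fold for Xrcc1 (edgeR adjusted p = 7.14e-06). Parp2, the close relative of Parp1, had 16.1, 22.4 and 17.6 CPM in LPS, against 29.9, 28.3 and 28.8 CPM in None, and fell 1.55-fold.

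Nucleotide excision repair contained the one large increase. Ercc1 (chr7:19344778-19356524) encodes the partner of the nuclease that makes the cut on the 5′ side of a bulky lesion and that also acts in crosslink repair. Ercc1 had 62.2, 51.7 and 66.2 CPM in LPS, against 11.1, 9.82 and 9.82 CPM in None. Even the lowest LPS library, replicate 2, held several times the highest None value. The increase was 5.86-fold (log2 2.55 ± 0.11, edgeR adjusted p = 1.16e-09), and the log2 fold change of Ercc1 stayed between 2.24 and 2.66 over all alternatives run. On the TPM scale it rose to 75.1 ± 8.46 in LPS, against 15.1 ± 1.35 in None. In LPS it stood beside Apex1, at 79.7 ± 9.37 TPM, within the spread of either gene. Ercc1 shares 3.41% of its exonic bases with Cd3eap on the opposite strand, and Cd3eap fell, at -0.39. Its nuclease partner Ercc4, on the wider list of this pathway, fell at -0.39 (edgeR adjusted p = 0.0107).

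The damage-recognising genes of the same pathway went the other way. Xpa, which checks the lesion, had 5.90, 6.39 and 5.99 CPM in LPS, against 9.77, 12.8 and 12.9 CPM in None, and fell 1.94-fold. Xpc, which finds helix distortions, had 13.6, 14.4 and 16.9 CPM in LPS, against 24.3, 21.4 and 22.5 CPM in None, and fell 1.51-fold. Both groups were separate in each gene. The helicase Ercc2, a subunit of the general factor TFIIH, had 34.2, 32.8 and 35.6 CPM in LPS, against 38.5, 34.0 and 34.6 CPM in None and was not called (-0.06 ± 0.09, edgeR adjusted p = 0.532), but it was called lower on TPM values (-0.45) and under scaling to library totals (-0.32). Ercc2 shares 17.8% of its exonic bases with Klc3 on the opposite strand, which rose (1.54). It also shares 24.6% with the antisense gene Gm26852, which was not tested. With Ercc1 among them, the 4 members summed to 107, 93.9 and 107 TPM in LPS, against 62.6, 63.2 and 64.4 TPM in None.

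All 4 checkpoint kinases fell, 3 of them by at least 2-fold. Of all genes tested, 35.1% were called lower, and 11.8% were lower by at least 2-fold. Atr, which responds to stalled replication forks, had 33.7, 39.1 and 29.2 CPM in LPS, against 69.9, 72.6 and 70.5 CPM in None. Its effector Chek1 had 6.75, 10.3 and 5.77 CPM in LPS, against 15.5, 16.8 and 17.1 CPM in None. The LPS and None libraries of this arm were well apart, with decreases of 2.09-fold for Atr (chr9:95857597-95951781, edgeR adjusted p = 8.59e-07) and 2.16-fold for Chek1 (chr9:36708482-36727065, edgeR adjusted p = 8.65e-05). In the arm of strand breaks, Chek2 had 8.88, 10.2 and 11.8 CPM in LPS, against 20.5, 20.3 and 22.5 CPM in None, and fell 2.05-fold. Atm had 36.2, 39.4 and 29.9 CPM in LPS, against 47.5, 47.5 and 45.9 CPM in None, and fell 1.34-fold. Atm was lower in every LPS library by CPM, but on TPM values its call was lost (-0.46, limma adjusted p = 0.0867).

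Genes of the wider repair lists were called in both directions. Of 104 further repair, checkpoint, translesion and direct reversal genes, 102 were tested, of which 43 fell (42.2%, against 35.1% of all genes tested) and 25 rose (24.5%, against 34.0%), with a median log2 fold change of -0.19. With scaling by library totals, 64 of them fell and 12 rose, where 51.0% of all genes tested were called lower and 22.5% higher. Whether these genes and the members differ was not tested. Of 10 further Fanconi anaemia genes, 7 fell and none rose, the highest value being -0.08. They include the translocase Fancm (-0.91), the ubiquitin ligase Fancl (-0.81) and the deubiquitinase Usp1 (-0.77). Further checkpoint genes fell in 9 of 17 and rose in 2, with the damage-marking histone H2ax at -1.56, the kinase Wee1 at -1.37 and the ubiquitin ligase Rnf8 at -1.19. H2ax, like other histone genes, is also tied to S phase. Other mismatch genes fell in 3 of 4, among them Mlh3 (-0.54). Recombination genes outside the members fell in 8 of 21 (38.1%, against 35.1% of all genes tested) and rose in 4 (19.0%, against 34.0%). Among them were the resolvase Gen1 at -1.62 and the recombinase paralogue Rad51c at 0.74.

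End joining genes outside the members fell in 6 of 12, among them Prkdc, the kinase that binds Ku (-1.19), the theta polymerase Polq (-1.17) and the end-opening nuclease Dclre1c (-0.78), and rose in 3, led by the gap-filling polymerase Polm (1.41). With scaling by library totals, 8 fell and 1 rose. The lists of base excision, nucleotide excision, translesion and direct reversal genes had members on both sides. Over all genes tested, 34.0% rose and 35.1% fell, or 22.5% and 51.0% with library totals. Of 11 base excision genes tested, 5 rose and 2 fell (2 and 5 with library totals), with Parp3 at 1.02 and the flap nuclease Fen1 at -0.85. Of 17 nucleotide excision genes, 6 (35.3%) rose and 4 (23.5%) fell (1 and 9 with library totals). Among them were Rad23b, the partner of Xpc, at 0.74 and the damage sensor Ddb2 at -0.43. The translesion genes Polk (0.85) and Mad2l2 (0.80) rose, while Rev3l (-0.78) and Rev1 (-0.66) fell. Of the direct reversal genes, the demethylase Alkbh2 rose (1.51) and the methyltransferase Mgmt fell (-0.90).

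**Figure D5:**
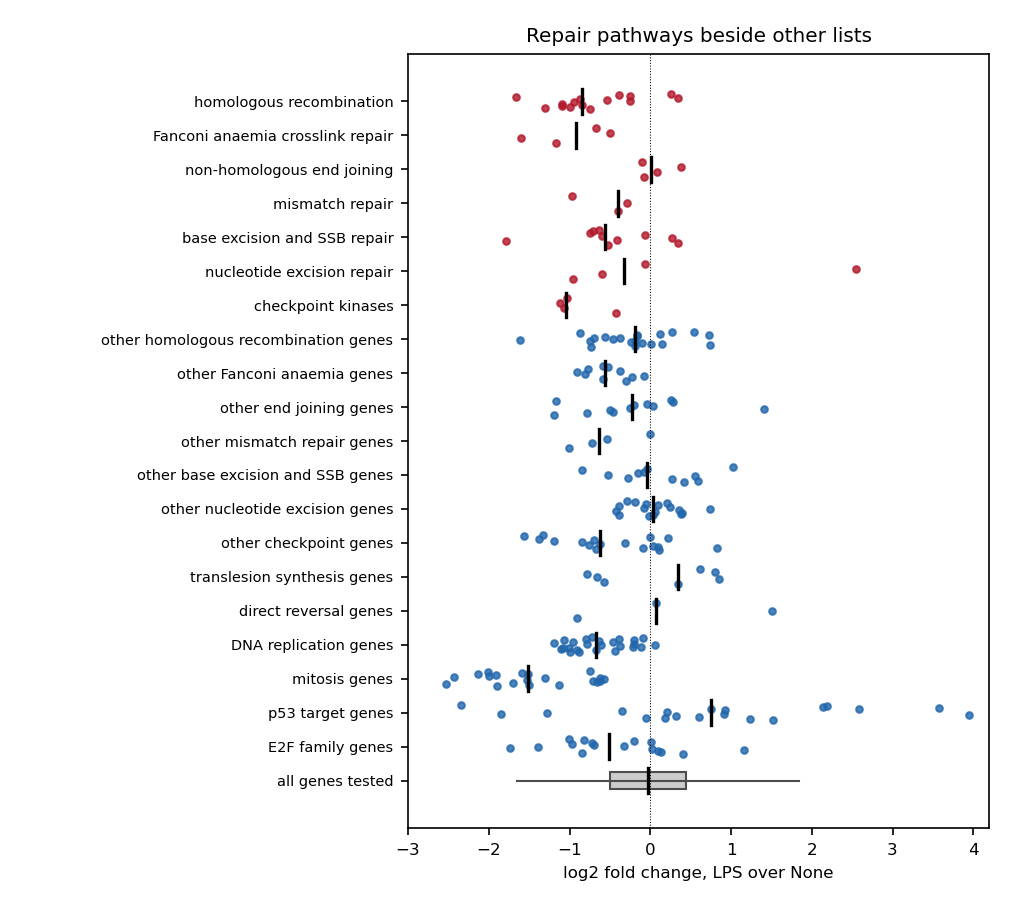
Log2 fold change of LPS over None for each tested gene of the member pathways (red) and of the other lists (blue), with a black bar at each median. The grey box spans the middle 50% of all genes tested and its line the 5th to 95th percentile. Medians of the member pathways run from -1.05 for checkpoint kinases to 0.00 for end joining, and mitosis genes lie lowest at -1.52.

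Genes that read out a damage response were called in both directions, more often higher. Of the p53 target list, many of whose genes also respond to inflammatory signals, 13 of 19 rose and 3 fell. The higher calls made up 68.4%, against 34.0% of all genes tested, and the lower calls 15.8%, against 35.1%. With library totals, 10 rose and 5 fell. Fas (3.95), Plk3 (3.57) and Plk2 (2.59) were up and Btg2 (-2.34) was down. Cdkn1a, the inhibitor of cyclin-dependent kinases, rose to 607 ± 39.4 TPM in LPS, against 266 ± 20.7 TPM in None. The gene of p53 itself, Trp53, was not called, at 88.4 ± 5.54 TPM in LPS and 104 ± 7.67 TPM in None (log2 -0.01 ± 0.07), although it was called lower on TPM values (-0.23) and under scaling to library totals (-0.27). Of 16 genes of the E2F and retinoblastoma network, 9 fell and 2 rose. The repressors E2f7 (-1.73) and E2f8 (-1.39) and the mitotic activator Foxm1 (-1.01) fell, and E2f5 rose (1.16). E2f1, an activator of replication genes, was called higher at 0.41 ± 0.08, but not with scaling by library totals (0.15) or on TPM values (0.17).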

How the data were processed

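RNA of RAW-Blue cells was sequenced as paired 100-base reads filtered with SOAPnuke, per the labels' protocols, and STAR 2.7.10a, RSEM 1.3.1 and the build GRCm38 are listed in the submitters' processing notes. The authors deposited expected counts and TPM values per gene, per the file headers. No source used here states strandedness. Of the library columns, 6 matched the None and LPS labels and 12 matched no label and were not used, so comparisons with LPS-PjELNs were not made.

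Expected counts were rounded. Genes were kept by filterByExpr (count minimum 10, total minimum 15), scaled by TMM and tested two-sided with the quasi-likelihood model of edgeR 4.0.16 in R 4.3.3, with group as the single term and Benjamini-Hochberg adjustment over 11916 genes. Counts on 530 genes without a symbol were 0.0231% to 0.0318% of a library. Standard errors are the log2 fold change divided by the root of F, and SDs are over 3 libraries. Alternatives used limma 3.58.1 and DESeq2 1.42.0. The steps were tested on simulated data. Gene coordinates and overlaps come from GENCODE M21 (GRCm38), and promoters from RefSeq (GRCm38.p6). No pair of libraries within a group was a repeat deposit of one library by chi-square tests of their counts (3.30 to 17.10 per degree of freedom), which do not tell cultures from library preparations. Counting noise is included in the SDs, and estimated counts of low genes are the least precise.

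The members and lists were chosen with earlier results of these data known. All 44 members are named, and of each wider list up to 4 genes with the largest called changes and no overlap between groups, besides E2f1, Mki67, Cdkn1a, Trp53, Adgre1, Cd68, Csf1r and Lyz2. S100a8, Cd79a, Itgam, Fcgr1, Ptprc, Mertk and genes that share exons with a member were named after their values were seen.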

Additional observations from a re-analysis of the deposited data

How the results depend on the processing

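Of the 44 members, 28 kept their direction and their side of the threshold in every alternative run, namely 27 that fell and Ercc1. RLE size factors, DESeq2, no filter on low counts, and keeping genes with 1 CPM in 3 or more libraries changed no member's call. The count of members that rose, 6 in the reported fit, was 1 on TPM values with either pseudocount (1 or 0.1) and 1 when scaled by library totals. A requirement of at least 2-fold left 1 that rose and 10 that fell. Over all genes, scaling by library totals left 2679 called higher, against 4052 in the reported fit. Leaving out one library at a time gave 5 to 6 members that rose and 29 to 33 that fell. Over all genes the range was 3722 to 4004 called higher and 3785 to 4099 called lower. Values that changed sign were those of Xrcc6 (-0.17 with library totals, -0.19 on TPM values with either pseudocount, -0.01 without None replicate 1), Xrcc4 (-0.18 on TPM values with either pseudocount), Ogg1 (-0.38 and -0.39 on TPM values with a pseudocount of 1 and 0.1), Xrcc5 (0.10 without None replicate 3) and Lig3 (0.01 without LPS replicate 3). The cause was not tested. Over all single libraries left out, these 3 uncalled genes ranged from -0.25 to 0.10 (Xrcc5), from -0.01 to 0.16 (Xrcc6) and from -0.12 to 0.01 (Lig3). Lig3 was called lower with library totals (-0.32). Deviations from the group means of same-numbered libraries correlated at 0.082, -0.020 and 0.010, and those of differently numbered libraries at -0.061 to 0.068. No clear pairing by number was seen, but 3 libraries per group cannot exclude one. With a replicate block 6 members rose and 32 fell, and no member's call changed. The shorter E2F letters (6 bases) were found in the same number of members, 21 (58.3%), but in 45.4% of genes tested, against 20.1% with the longer letters. The widest standard errors were those of Exo1 (0.24) and of the sparse genes Fancb (0.21) and Xrcc5 (0.21).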

Other observations

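The deposited counts and TPM values of a gene together give the effective length that the authors' quantification assigned to it in each library. This ratio, relative to the median gene of each library, was 1.47 times longer in LPS than in None for Ogg1 and 1.31 times for Xrcc4, and 0.670 times for Pms2. The groups did not overlap in these 3 genes, but for Pms2 they nearly met (log2 0.25 in LPS replicate 3, 0.29 in None replicate 3). Members with far smaller differences, such as Nbn and Msh6 (0.04 on the log2 scale), also had separate groups. The share of all genes with separate groups is not given here. Changes of at least 0.5 on the log2 scale were found for 2 members, Ogg1 and Pms2 (4.55%), against 2.84% of all genes tested. With library totals in place of TMM scaling, the log2 fold changes of Ogg1 and Xrcc4 were 0.08 and 0.12. The TMM-scaled CPM and the TPM comparisons of these genes ran in opposite directions, for a reason that was not tested. For Pms2 both were lower in LPS, at 10.3 ± 1.21 CPM in LPS and 20.3 ± 1.37 CPM in None, and at 5.73 ± 1.31 TPM in LPS and 8.41 ± 0.347 TPM in None. Isoform values were not analysed here.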
